A study of Mus musculus with 17 samples.

Results

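The samples described here are cells of the dorsal lineage of the mouse postnatal subventricular zone at 1 day and at 8 hours after labelling. The members are 5 dorsal samples, 3 at 1 day and 2 at 8 hours, of 34 dorsal and lateral samples carried by 17 two-colour arrays. They were chosen by label alone: the dorsal sample of every array whose label reads 1 day or 8 hours. In CD1 mice, progenitors of the dorsal wall of the subventricular zone received plasmid by in vivo electroporation at postnatal day 1, and cells carrying the green fluorescent protein were later sorted by flow cytometry. All groups share the strain, the electroporation and the sort, and the series holds further arrays at 2, 4, 7 and 14 days. Each array carried the dorsal sample in the Cy3 channel and a lateral wall sample of the same time point in the Cy5 channel, and the dyes were never swapped. RNA was amplified globally by PCR before labelling of 200 ng of cDNA, so each level describes amplified cDNA of a small sorted population. The labels call the arrays biological replicates and do not give the animals behind each one.

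The subventricular zone lines the lateral ventricle and keeps stem cells that descend from radial glia. Its dorsal wall descends from the embryonic pallium and its lateral wall from the subpallium, and both send young neurons to the olfactory bulb. Electroporation involves an injection and an electric pulse, and brain tissue answers injury with early transcription factors, cytokines, chemokines and, later, reactive glia. Between 8 hours and 1 day the labelled cells are at the very start of their lineage, when progenitors begin to give rise to their first progeny.

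The labels were checked against defining genes. Slc1a3, the glial glutamate transporter of radial glia, read 16.20, 16.30 and 16.80 log2 units in the 1 day samples, against 16.35 and 16.18 in the 8 hour samples. The 16 pallial transcription factors measured in the 5 samples averaged between 11.35 and 12.13 at 1 day, against 10.83 and 10.94 at 8 hours, and the lateral samples of the same arrays averaged between 9.83 and 10.71 at 1 day, against 9.31 and 9.34 at 8 hours. The 14 subpallial factors had the opposite order, with dorsal means between 8.71 and 9.52 at 1 day, against 7.94 and 8.18 at 8 hours, and lateral means of the same arrays between 9.62 and 10.51 at 1 day, against 9.06 and 9.17 at 8 hours. On each of the 5 arrays the dorsal sample was above its lateral partner for the pallial list and below it for the subpallial list. Lineage and dye cannot be told apart, because each lineage always had the same dye.

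The 5 samples were not equally alike. The 2 samples at 8 hours correlated at 0.98 over 23121 genes, while the 3 samples at 1 day correlated with each other at 0.67 to 0.85. Replicate 3 at 1 day correlated with the 8 hour samples at 0.92 and 0.93, replicate 2 at 0.80 and 0.81, and replicate 1 at 0.62 and 0.63. The median dorsal signal above background was 31.7, 84.0 and 177 intensity units on the 1 day arrays, against 202 and 168 on the 8 hour arrays. Probes well above background made up 61.2%, 71.3% and 74.4% of the array at 1 day, against 71.8% and 71.7% at 8 hours. Replicate 1 at 1 day was thus the dimmest array, and replicate 3 the one closest to 8 hours. The 3 arrays of 1 day filled a slide of their own, read with one version of the scanner software, while both 8 hour arrays lay on another slide read with another version. Slide, software version and time point therefore cannot be told apart in this comparison.

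Between 8 hours and 1 day, the genes that passed the test were mostly lower at 1 day. The largest differences belonged to Cxcl11, a chemokine, Sbno2, a transcriptional co-regulator, Retnlg, a gene of myeloid cells, and Fosl1, an AP-1 subunit. Of 23244 genes, 53 fell (0.228%) and 6 rose (0.0258%) at an adjusted p under 0.05 (limma on the dorsal channel of 17 arrays, Benjamini-Hochberg). The unadjusted p was under 0.05 for 3346 genes. A further measure, used below for gene lists, counts genes whose 1 day and 8 hour samples did not overlap and whose means differed by at least 1 log2 unit: 11.3% of 23121 genes were lower at 1 day by this measure and 17.3% were higher. These shares of lower and higher genes were 12.4% and 15.1% without replicate 1 of 1 day, 19.1% and 28.4% without replicate 3 of 1 day, 8.42% and 19.0% under 75th percentile scaling, 11.0% and 15.7% with quantile scaling of the dorsal channel alone, and 12.1% and 22.8% from the scanner's processed signal. The median difference over all genes was 0.30 log2 units, and it was 0.63 where each dorsal channel was scaled to its 75th percentile. The counts leaned on single samples, with 52 lower and 6 higher genes without replicate 1 of 1 day, 22 and 2 without replicate 2, and 549 and 1112 without replicate 3. Without replicate 1 of 8 hours 8 genes were lower and 0 higher, and without replicate 2 of 8 hours 9 were lower and 0 higher. Scaling to the 75th percentile, or fitting the 5 arrays alone, left 0 genes past the threshold in limma, with 1787 and 2336 genes at an unadjusted p under 0.05. All 59 genes kept the sign of their difference in every alternative run for this comparison.

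Cxcl11 had the largest difference, and 4 other genes of chemokines or cytokines and 1 chemokine receptor gene are described with it. Cxcl11, an interferon-inducible chemokine that attracts activated T cells, read 6.17, 6.43 and 7.00 log2 units at 1 day, against 13.97 and 13.30 at 8 hours. The 1 day samples lay near the floor of the array, with 1 of 3 well above background, while both 8 hour samples were bright. Cxcl11 fell by 7.10 ± 0.53 (SE) on the log2 scale, a 137-fold difference (limma adjusted p = 3.14e-05). Il1a, the cytokine interleukin 1 alpha that is released early from damaged cells, read 8.39, 7.31 and 6.93 at 1 day, against 12.90 and 12.61 at 8 hours. Its groups were separated by over 4 log2 units, and it fell 37.1-fold (limma adjusted p = 0.00163). Cxcl13, a chemokine that attracts B cells, read 6.20, 6.11 and 7.52 at 1 day, against 11.39 and 11.93 at 8 hours (limma adjusted p = 0.0322). Cxcl3 and Ccl22, further chemokines, also fell. Neither was well above background on any 1 day array, and the differences were at least 4.57-fold and at least 5.05-fold. Ccr7, a chemokine receptor of lymphocytes and dendritic cells, read 6.82, 6.52 and 6.34 at 1 day, against 10.02 and 11.75 at 8 hours, and it fell by 4.33 ± 0.48 (SE) on the log2 scale.

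Retnlg had the smallest adjusted p of the comparison. This gene encodes a resistin-like protein of neutrophils and other myeloid cells. It read 6.91, 6.50 and 6.36 log2 units at 1 day, against 12.94 and 13.05 at 8 hours. Of its 1 day arrays 1 of 3 was well above background, so the difference is measured against a level near the floor. It was 84.7-fold lower at 1 day, or -6.40 ± 0.41 (SE) on the log2 scale (limma adjusted p = 7.53e-06). Stx11, a membrane fusion protein of blood cells, read 7.15, 6.30 and 6.30 at 1 day, against 11.09 and 11.74 at 8 hours. It was well above background on none of the 1 day arrays, so its difference was at least 28.6-fold (limma adjusted p = 3.74e-05). Stx11 thus entered the test through the 8 hour arrays alone. Other genes of leukocytes that fell were Pik3r5, a regulator of the phosphoinositide 3-kinase of leukocytes (-5.75 log2 units), Slamf1, a lymphocyte surface receptor (-3.20), Pdcd1, the inhibitory receptor PD-1 (-3.79), and Dcstamp, a protein of macrophage and osteoclast fusion (-3.40). Acp5, an acid phosphatase of macrophages and osteoclasts, read 6.89, 6.61 and 9.20 at 1 day, against 13.50 and 13.69 at 8 hours, with replicate 3 of 1 day the highest of its group.

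Other genes that fell encode a transcription factor, receptors and ligands. Fosl1, the AP-1 subunit Fra-1, read 6.52, 6.47 and 7.41 log2 units at 1 day, against 13.11 and 13.12 at 8 hours. The 8 hour samples were nearly equal, and every 1 day sample was over 5 log2 units below them. Fosl1 fell 79.6-fold (limma adjusted p = 3.35e-05). Sbno2, a co-regulator induced by cytokines in macrophages and astrocytes, read 7.55, 7.89 and 7.46 at 1 day, against 14.14 and 14.59 at 8 hours, with a standard error of 1.08 around its difference of -6.73 (limma adjusted p = 0.0239). Tnfrsf12a, the receptor of the cytokine TWEAK, read 11.12, 9.29 and 12.89 at 1 day, against 16.33 and 16.37 at 8 hours. Clcf1, a cytokine that acts through the receptor of ciliary neurotrophic factor, read 9.04, 7.98 and 8.20 at 1 day, against 11.78 and 11.77 at 8 hours (limma adjusted p = 0.0164). F3, tissue factor, which starts blood clotting, read 6.82, 9.43 and 9.53 at 1 day, against 13.78 and 13.54 at 8 hours. F2rl1, a receptor cleaved by clotting proteases, read 6.11, 6.10 and 7.05 at 1 day, against 10.88 and 10.41 at 8 hours. Nrg1, a growth factor for ErbB receptors, read 8.31, 7.33 and 9.83 at 1 day, against 12.57 and 12.82 at 8 hours, and it fell 18.5-fold. The remaining leading genes that fell were Car13, a carbonic anhydrase (-5.67 log2 units), Dysf, which encodes the membrane repair protein dysferlin (-5.32), and Sprr2d, a protein of the cornified envelope of skin (-4.21).

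Gbp4, Ifi205 and Malt1 fell as well. Gbp4, a guanylate-binding protein induced by interferon, read 6.17, 6.36 and 8.53 log2 units at 1 day, against 11.78 and 12.07 at 8 hours. Ifi205, an interferon-inducible gene with close relatives that may share probe signal, read 8.01, 9.75 and 8.74 at 1 day, against 13.38 and 13.45 at 8 hours. Malt1, a protease that relays antigen receptor signals to NF-kB, read 8.33, 6.80 and 9.0 at 1 day, against 12.73 and 12.35 at 8 hours. In all 3 genes the highest 1 day sample stayed over 3 log2 units below the lowest 8 hour sample. Gbp2b (-2.86), Trim56 (-3.05) and Slfn8 (-2.36), which respond to interferon, Irak3, a brake on Toll-like receptor signalling (-3.68), Tnfsf10, the death ligand TRAIL (at least 6.47-fold), and Nos2, the inducible nitric oxide synthase (at least 3.90-fold), also fell. These genes were grouped after their calls were known, and the counts of the gene lists are given further on. Of the 53 genes that fell, 15 were well above background on no 1 day array and 14 on all 3 of them. Retnlg, Pik3r5, Cxcl13, Gbp4, Ccr7, F2rl1 and Sprr2d were well above background on 1 of the 3 arrays, and Fosl1, Acp5, Dysf and F3 on 2 of them. Genes entered the test if well above background on at least 2 of the 5 arrays. The 15 genes with no such 1 day array thus entered through the 8 hour arrays alone, and their p-values do not allow for that.

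**Figure D1:**
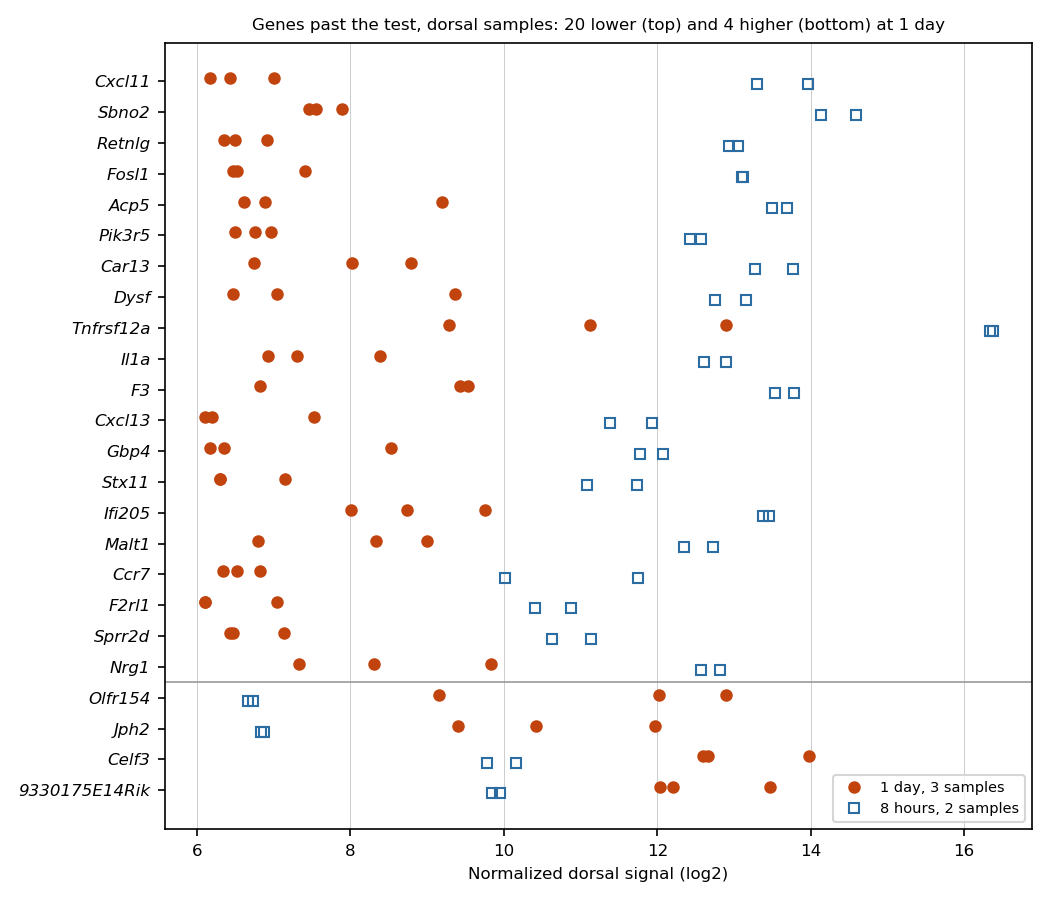
Normalized dorsal signal (log2) of the 20 genes that fell most and 4 genes that rose, with 1 day samples as filled circles and 8 hour samples as open squares. For each gene the groups do not overlap, and the 1 day samples of Cxcl11 sit between 6.17 and 7.00, against 13.30 and 13.97 at 8 hours.

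Of the 53 genes, 7 passed the threshold in each of the 5 fits that left out 1 sample: Cxcl11, Retnlg, Fosl1, Stx11, Ccr7, Sprr2d and Arsj, an arylsulfatase. Arsj read 6.64, 6.26 and 6.41 log2 units at 1 day, against 10.30 and 10.31 at 8 hours, a difference of at least 14.6-fold. Their adjusted p without 1 sample reached at most 0.0305, for Ccr7. The slide of the 8 hour arrays also held 1 array of 4 days and 1 of 7 days, while the slide of the 1 day arrays held no other time point. On those arrays the 53 genes differed from the other arrays of the same age by a median of -0.15 log2 units at 4 days and -0.06 at 7 days. At both ages 0 of the 53 were higher by 1 or more on that slide, against 4.04% of all genes. Those arrays were in the same fit, where spread within an age makes a call less likely. These values therefore cannot test a part of the slide in the 53 calls. Of the 2610 genes lower at 1 day without overlap that could be compared, 8.97% were higher on that slide by 1 or more at both ages, and of the 3989 genes higher at 1 day 6.59% were lower there, against 3.11% of all genes. With 1 array per age, the part of the slide in the list counts was not tested. With a term for that slide in the fit, 6 genes fell and 0 rose (limma, 1033 genes at an unadjusted p under 0.05).

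Promoter sequences of the genes that fell are shown because AP-1, interferon-regulated factors and NF-kB bind short known motifs. Of the 53 genes, 31 had an entry in the RefSeq promoter table (GRCm38.p6), of which the 250 bases before the gene's start were searched on both strands. The AP-1 motif TGANTCA lay in 4 of the 31 (12.9%), against 7.82% of 27025 genes in the table, and the interferon motif GAAANNGAA in 6 (19.4%), against 8.18%. The NF-kB core GGANNTTCC, added after the values were seen, lay in 2 (6.45%), against 4.12%. The share was below that of all genes for the heat shock motif GAANNTTC, in 2 (6.45%), against 7.73%, and for the CCAAT box (letters CCAAT), in 10 (32.3%), against 37.5%. None of these shares was tested. A match describes the letters only. The promoter of F3, shown because it holds both the AP-1 and the NF-kB letters and chosen after its values were seen, lies at chr3:121723287-121723536 on the plus strand, with capitals marking 2 AP-1 motifs that begin 146 and 135 bases before the start and the NF-kB core 112 bases before it.

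F3: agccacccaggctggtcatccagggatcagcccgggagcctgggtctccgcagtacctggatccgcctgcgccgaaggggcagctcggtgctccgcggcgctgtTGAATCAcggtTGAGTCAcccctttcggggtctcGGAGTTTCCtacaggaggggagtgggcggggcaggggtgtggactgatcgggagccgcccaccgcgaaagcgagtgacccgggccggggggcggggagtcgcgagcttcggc

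Shorter windows around 1 motif each are given for 5 further genes that fell, with the motif in capitals: the AP-1 motif of Il1a (chr2:129309973-129310004, minus strand) and of Sprr2d (chr3:92338927-92338973, plus strand), the interferon motif of Ifi205 (chr1:174031861-174031909, minus strand) and of Sbno2 (chr10:80075619-80075667, minus strand), and the NF-kB core of Cxcl3 (chr5:90786009-90786057, plus strand).
Il1a: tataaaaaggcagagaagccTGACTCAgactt
Sprr2d: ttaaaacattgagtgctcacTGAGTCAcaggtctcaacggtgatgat
Ifi205: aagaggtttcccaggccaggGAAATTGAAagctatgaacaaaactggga
Sbno2: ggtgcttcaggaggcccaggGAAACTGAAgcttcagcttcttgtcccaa
Cxcl3: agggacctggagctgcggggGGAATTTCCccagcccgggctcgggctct
The AP-1 motif of Il1a begins 12 bases before the start, the closest of those listed, and the genes behind these windows fell by at least 4.57-fold (Cxcl3) to 106-fold (Sbno2). Retnlg held none of the AP-1, interferon or NF-kB letters in its window and fell 84.7-fold.

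Whole gene lists gave a wider view of the same step. They were written with earlier results of these data known, and some genes, such as Fosl1, are in more than 1 list. Over all genes, 0.228% passed the test and fell, the share to set beside the calls of each list. Of 30 reactive glia genes measured in the 5 samples, 17 were lower at 1 day without overlap (56.7%, against 11.3% of all genes). None was higher, against 17.3% of all genes, and the list median was -1.84 log2 units, against 0.30 for all genes. Of the 31 members tested, 3 passed the test, Fosl1, Clcf1 and Steap4, a metalloreductase of reactive astrocytes, and all 3 fell. With values averaged over a gene's probes, Steap4 did not pass (limma adjusted p = 0.146). Stat3, the transcription factor that drives astrocyte reactivity, read 9.94, 9.45 and 10.89 at 1 day, against 12.75 and 13.02 at 8 hours, without passing the test (limma adjusted p = 0.211). Timp1, an inhibitor of matrix proteases, read 11.14, 11.52 and 11.66 at 1 day, against 14.49 and 13.93 at 8 hours (limma adjusted p = 0.0894). Ptx3, a secreted pentraxin of innate immunity, stayed bright in both groups, at 15.22, 14.48 and 14.71 at 1 day, against 17.19 and 17.16 at 8 hours. Gfap, the intermediate filament gene of the astrocyte markers, read 13.23, 13.66 and 13.54 at 1 day, against 13.32 and 13.59 at 8 hours, with overlapping groups.

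Of 28 NF-kB pathway and acute inflammatory genes, 15 were lower without overlap (53.6%, against 11.3% of all genes). Il11 alone was higher (3.57%, against 17.3%), and the list median was -1.79 log2 units. Il1a was the single member past the test. Nfkb2, a subunit of NF-kB, read 12.28, 10.63 and 10.80 at 1 day, against 14.09 and 14.49 at 8 hours (limma adjusted p = 0.212). Tnf, the cytokine tumour necrosis factor, read 6.59, 6.42 and 7.47 at 1 day, against 9.64 and 9.69 at 8 hours (limma adjusted p = 0.116). Nfkbia, the inhibitor that NF-kB itself induces, overlapped between the groups at 16.74, 13.59 and 16.27 at 1 day, against 16.82 and 16.58 at 8 hours.

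The chemokine list had 17 members measured in all 5 samples. Without overlap, 9 were lower (52.9%, against 11.3% of all genes) and 0 higher (against 17.3%). Of the 19 members tested, 2 passed the test, Cxcl11 and Cxcl13. Ccl2, which recruits monocytes, read 10.01, 8.61 and 11.68 at 1 day, against 15.57 and 15.12 at 8 hours (limma adjusted p = 0.0986). Cxcl1, which recruits neutrophils, read 11.52, 8.81 and 13.96 at 1 day, against 16.45 and 16.81 at 8 hours. Cxcl10 read 14.81, 14.40 and 14.68 at 1 day, against 17.81 in replicate 1 of 8 hours, and its spot was left out on replicate 2 of 8 hours. Some members had overlapping groups, such as Ccl5, a chemokine for T cells and monocytes, at 12.18, 10.08 and 15.59 at 1 day, against 14.40 and 14.57 at 8 hours.

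Of 34 interferon response genes, 12 were lower without overlap (35.3%, against 11.3% of all genes). Ifi27 alone was higher (2.94%, against 17.3%). The list median was -0.48 log2 units, and none passed the test. Isg20, an antiviral exonuclease, read 7.03, 6.75 and 12 at 1 day, against 14.11 and 14.77 at 8 hours. Irf7, the master regulator of type I interferon genes, read 10.73, 7.01 and 12.83 at 1 day, against 14.64 and 15.57 at 8 hours. In both genes replicate 3 of 1 day lay closest to the 8 hour level. The 34 genes together averaged 13.03, 13.00 and 13.30 at 1 day, against 14.00 and 14.03 at 8 hours, and they stood at 12.24 and 12.56 at 2 days and at 8.04 to 9.31 at 4 days.

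Immediate early genes were mixed. Of 30 members, 9 were lower (30%, against 11.3% of all genes) and 3 higher (10%, against 17.3%) without overlap. Fosl1 alone passed the test. Atf3, a stress-induced transcription factor, read 7.46, 6.89 and 12.74 at 1 day, against 14.17 and 14.23 at 8 hours (limma adjusted p = 0.224). Fosl2, a relative of Fosl1 that also forms AP-1, had the opposite direction, at 15.09, 14.92 and 12.26 at 1 day, against 11.71 and 11.84 at 8 hours (limma adjusted p = 0.318). Fosl1 and Fosl2 thus stood on opposite sides at 1 day, while the test was passed by Fosl1.

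The oxidative stress and metallothionein list had 8 of 16 members lower without overlap (50%, against 11.3% of all genes) and 0 higher (against 17.3%). Its median was -1.46 log2 units, and 0 members passed the test in limma. The lower count was 4 (25%, against 8.42% of all genes) under 75th percentile scaling and 5 (31.2%, against 12.1%) from the scanner's processed signal. Prdx1, a peroxide-reducing enzyme, read 12.26, 13.27 and 14.89 at 1 day, against 16.13 and 15.44 at 8 hours. Srxn1, which reactivates such enzymes, read 12.05, 13.15 and 13.61 at 1 day, against 15.80 and 15.22 at 8 hours. Mt2, a metal-binding metallothionein, read 15.82, 15.04 and 15.78 at 1 day, against 16.67 and 17.69 at 8 hours. In the lateral samples 2 of the 16 were lower without overlap (against 9.98% of all genes) and the list median was -0.46.

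Genes of the cytoskeleton, adhesion and extracellular matrix had 17 of 43 members lower without overlap (39.5%, against 11.3% of all genes). Fn1 alone was higher (2.33%, against 17.3%). Lama1, the laminin alpha 1 chain of basement membranes, passed the test: it read 6.60, 6.26 and 6.13 log2 units at 1 day, against 10.78 and 8.99 at 8 hours, at least 11.7-fold lower. Its lateral difference was 2.05, with the opposite sign, but Lama1 was not called in the test of dorsal against lateral differences given further on. Itga5, an integrin receptor for fibronectin, read 10.41, 9.85 and 12.34 at 1 day, against 15.16 and 15.33 at 8 hours (limma adjusted p = 0.266). Spp1, the secreted protein osteopontin, read 9.56, 7.83 and 13.43 at 1 day, against 14.17 and 14.99 at 8 hours. As in Atf3 and Isg20, replicate 3 of 1 day stood well above the other samples of its group. The 54 cytosolic ribosomal protein genes had 0 members lower and 1 higher (1.85%, against 17.3% of all genes) without overlap, and a median of 0.13.

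**Figure D2:**
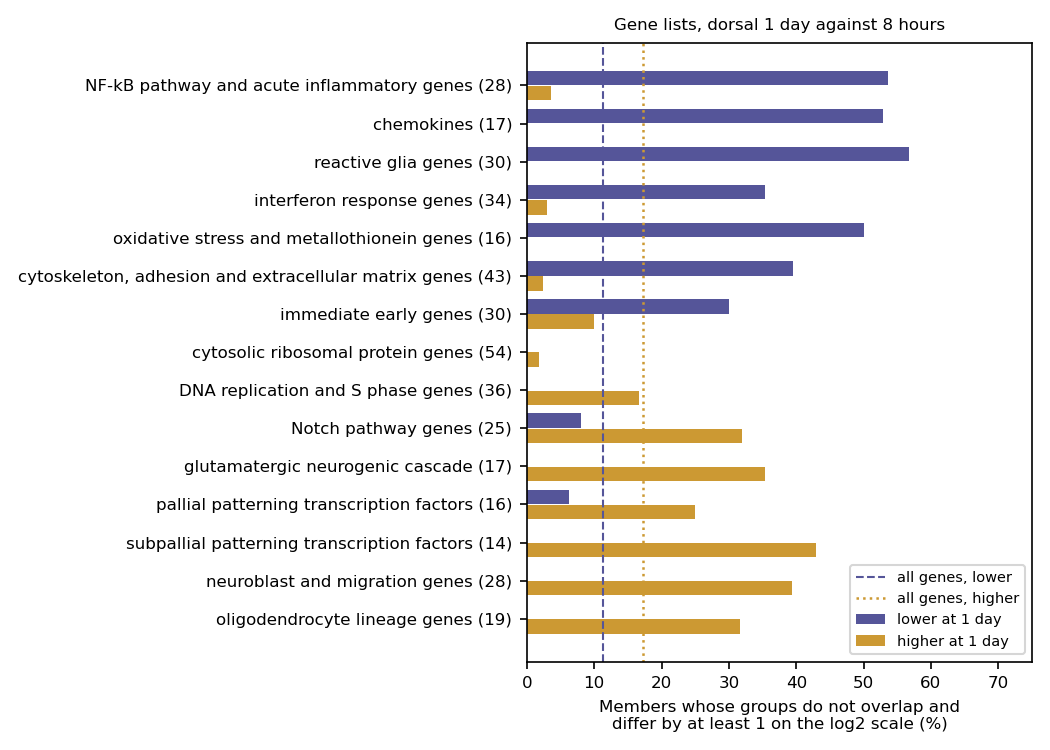
Share of 15 of the 41 gene lists (%, members measured in the 5 samples in brackets) whose 1 day and 8 hour samples do not overlap and differ by at least 1 log2 unit; dashed and dotted lines give the shares of all genes, 11.3% lower and 17.3% higher. Reactive glia genes reach 56.7% lower, subpallial factors 42.9% higher, and neuroblast and migration genes 39.3% higher.

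Markers of blood and immune cells moved with these lists. The 14 neutrophil markers averaged 8.42, 8.76 and 9.20 log2 units at 1 day, against 10.44 and 10.80 at 8 hours. Of the 14, 8 were lower without overlap (57.1%, against 11.3% of all genes), with Retnlg past the test. The neutrophil calgranulin S100a9 read 9.11, 12.44 and 13.46 at 1 day, against 14.37 and 14.72 at 8 hours. The neutrophil enzyme genes Mpo and Elane, made in the bone marrow, overlapped between the groups, with Mpo at 10.02, 8.64 and 8.06 at 1 day, against 8.10 and 8.39 at 8 hours.

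The 20 microglia and macrophage markers averaged 9.85, 9.57 and 12.51 log2 units at 1 day, against 12.90 and 12.87 at 8 hours. Of the 20, 11 were lower without overlap (55%, against 11.3% of all genes). With quantile scaling of the dorsal channel alone 7 of 20 were lower (35%, against 11.0%). Csf1r, the receptor these cells depend on, read 8.73, 7.77 and 11.15 at 1 day, against 12.66 and 12.88 at 8 hours. Aif1, another of their markers, overlapped at 14.06, 11.14 and 14.75 at 1 day, against 13.90 and 13.15 at 8 hours. Replicate 3 of 1 day again lay near the 8 hour samples. The same markers averaged 13.06 to 14.18 at 2 days.

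The 10 erythroid markers averaged 10.18, 10.57 and 10.69 log2 units at 1 day, against 12.91 and 12.18 at 8 hours. Of the 10, 8 were lower without overlap (80%, against 11.3% of all genes). Under 75th percentile scaling 5 of 10 were lower (50%, against 8.42%). Hba-a1, an alpha globin whose near-identical copy may share its probe, read 17.15, 16.23 and 15.08 at 1 day, against 19.08 and 18.96 at 8 hours. In the lateral samples 0 of these 10 were lower without overlap (against 9.98% of all genes) and 1 was higher (against 15.0%). Endothelial markers averaged 8.28, 10.47 and 7.29 at 1 day, against 7.64 and 7.88 at 8 hours, and Cldn5, a tight junction gene of brain endothelium, read 15.43 in replicate 2 of 1 day, while the other 4 samples lay between 7.11 and 8.36. Of these marker lists, the neutrophil, microglial and erythroid ones were at their higher level in both 8 hour samples, as the inflammatory lists were. Their part in the differences of those lists was not tested, and in these bulk samples fewer cells of a type and less RNA per cell cannot be told apart.

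**Figure D3:**
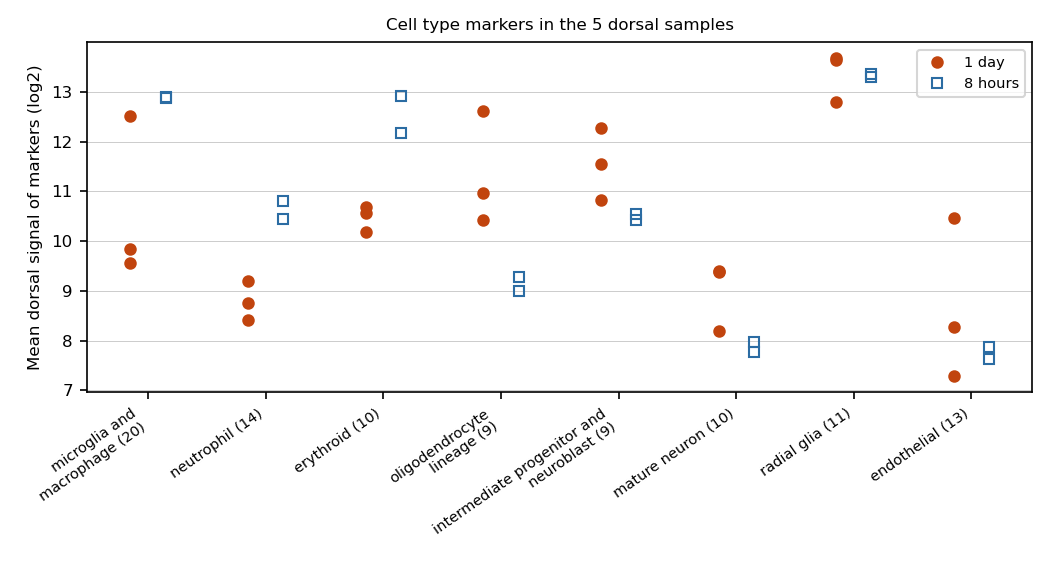
Mean dorsal signal (log2) of each cell type's markers in every sample, with 1 day as filled circles, 8 hours as open squares and the number of markers in brackets. Neutrophil and erythroid markers are lower in the 3 samples of 1 day, oligodendrocyte lineage and mature neuron markers are higher, and 1 endothelial sample of 1 day stands at 10.47.

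The genes that rose were few. Celf3, a neuronal RNA-binding protein, read 12.66, 13.98 and 12.60 at 1 day, against 10.16 and 9.78 at 8 hours. Celf3 rose by 3.11 ± 0.53 (SE) on the log2 scale, 8.63-fold (limma adjusted p = 0.0313). Jph2, a junctional membrane protein best known from muscle, read 11.97, 10.42 and 9.40 at 1 day, against 6.87 and 6.84 at 8 hours. Olfr154, an olfactory receptor gene, read 12.90, 12.02 and 9.16 at 1 day, against 6.73 and 6.67 at 8 hours. The transcript 9330175E14Rik rose by 2.67, and a probe with no gene name in the tables used (A_51_P133819) rose by 5.56. With values averaged over a gene's probes, Jph2 and 9330175E14Rik did not pass the test (limma adjusted p = 0.262 and 0.253). The highest adjusted p in the fits that left out 1 sample lay between 0.36 and 0.507 for the 6 genes, so each lost its call in at least 1 of them.

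Oligodendrocyte lineage genes had 6 of 19 members higher without overlap (31.6%, against 17.3% of all genes) and 0 lower (against 11.3%). Their median was 1.23 log2 units, against 0.30 for all genes. Gpr17, a receptor of committed oligodendrocyte progenitors, read 11.63, 14.18 and 10.32 at 1 day, against 6.81 and 6.38 at 8 hours, and did not pass the test (limma adjusted p = 0.166). Olig2, the transcription factor of this lineage, read 13.91, 12.66 and 11.73 at 1 day, against 10.19 and 11.36 at 8 hours. Mbp, the myelin basic protein gene, overlapped at 8.67, 12.89 and 10.65 at 1 day, against 11.66 and 11.57 at 8 hours.

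Further neuronal genes lay on the same side as Celf3 without passing the test. Of 28 neuroblast and migration genes, 11 were higher without overlap (39.3%, against 17.3% of all genes) and 0 lower (against 11.3%). The list median was nevertheless 0.35, close to that of all genes. Igfbpl1, a gene of newborn neurons, read 15.43, 16.36 and 15.12 log2 units at 1 day, against 12.65 and 13.41 at 8 hours (limma adjusted p = 0.105). Tubb3, the neuronal beta tubulin, read 13.62, 13.24 and 13.12 at 1 day, against 10.57 and 11.26 at 8 hours (limma adjusted p = 0.184). The RNA-binding protein gene Elavl3 read 12.77, 13.86 and 12.72 at 1 day, against 10.53 and 11.17 at 8 hours. In these 3 genes each 1 day sample was over 1 log2 unit above both 8 hour samples.

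The glutamatergic neurogenic cascade, which pallial progenitors follow, had 6 of 17 members higher without overlap (35.3%, against 17.3% of all genes) and 0 lower (against 11.3%). Without replicate 1 of 1 day 10 of 17 were higher (58.8%, against 15.1% of all genes). The count was 6 of 17 (35.3%) without replicate 2 of 1 day, against 20.7% of all genes. It was also 6 without replicate 3, against 28.4%. Eomes, the factor of glutamatergic intermediate progenitors, read 11.04, 11.63 and 11.27 at 1 day, against 8.50 and 8.12 at 8 hours (limma adjusted p = 0.224). Neurod2, a later factor of the cascade, read 11.52, 13.10 and 11.12 at 1 day, against 8.82 and 9.28 at 8 hours. The GABAergic factor Dlx2, of transit amplifying progenitors, had the same direction at 9.10, 10.87 and 10.61 at 1 day, against 6.76 and 7.35 at 8 hours (limma adjusted p = 0.121). Of the pallial patterning factors, 4 of 16 were higher (25%, against 17.3% of all genes) and 1 lower (6.25%, against 11.3%) without overlap. Of the subpallial ones, 6 of 14 were higher (42.9%) and 0 lower. Emx2, a pallial factor, read 15.84 and 13.06 in replicates 1 and 3 of 1 day, against 10.16 in replicate 2 of 8 hours, and its spots on the other 2 arrays were left out.

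Notch signalling holds progenitors undifferentiated, and the list of Notch pathway genes includes inhibitors of the pathway as well as receptors and targets. Of its 25 members, 8 were higher (32%, against 17.3% of all genes) and 2 lower (8%, against 11.3%) without overlap. Without replicate 1 of 1 day 13 of 25 were higher (52%, against 15.1% of all genes). The count was 7 (28%, against 20.7%) without replicate 2 of 1 day and 9 (36%, against 28.4%) without replicate 3. The Notch targets Hes5 and Hes1 stood on opposite sides. Hes5 read 15.90, 16.45 and 15.49 log2 units at 1 day, against 14.33 and 14.71 at 8 hours (limma adjusted p = 0.473). Hes1 read 7.72, 6.44 and 6.88 at 1 day, against 9.35 and 8.73 at 8 hours (limma adjusted p = 0.127). Nrarp, a feedback inhibitor of the pathway, read 13.10, 11.09 and 10.84 at 1 day, against 9.76 and 9.59 at 8 hours.

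Cell cycle genes were divided into 2 lists. Of 36 DNA replication and S phase genes, 6 were higher (16.7%, against 17.3% of all genes) and 0 lower (against 11.3%) without overlap, and of 37 G2 and mitosis genes, 6 were higher (16.2%) and 5 lower (13.5%). Without replicate 1 of 1 day, 12 of the 36 S phase genes were higher (33.3%, against 15.1% of all genes). That share was 22.2% without replicate 2 of 1 day (against 20.7%) and 16.7% without replicate 3 (against 28.4%). Without replicate 3 of 1 day, 8 of the 37 mitosis genes were lower (21.6%, against 19.1% of all genes). Pola1, the catalytic subunit of DNA polymerase alpha, read 12.99, 11.73 and 11.54 log2 units at 1 day, against 9.15 and 9.43 at 8 hours. Cdk1, the kinase of mitotic entry, read 6.03, 8.84 and 10.19 at 1 day, against 11.05 and 10.63 at 8 hours. Members of the same list thus stood on both sides, and 0 of these 73 genes passed the test in limma.

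The 11 radial glia markers had overlapping means, at 12.80, 13.63 and 13.67 at 1 day, against 13.35 and 13.30 at 8 hours. Sox2, a stem cell transcription factor, read 11.38, 12.91 and 14.17 at 1 day, against 13.22 and 13.26 at 8 hours. Among receptors and ligands, Tgfa, a ligand of the EGF receptor, read 6.84, 6.62 and 7.15 at 1 day, against 9.50 and 8.82 at 8 hours, and Inhba, a subunit of activin, was well above background on no 1 day array. Among p53 targets, Mdm2, the inhibitor of p53, read 14.33, 11.81 and 13.07 at 1 day, against 11.61 and 11.78 at 8 hours, and Gadd45b, a stress sensor, read 8.22, 7.51 and 11.70 at 1 day, against 13.29 and 13.19 at 8 hours. The last 2 lie on opposite sides within 1 list, and neither passed the test (limma adjusted p = 0.417 and 0.108).

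The later dorsal samples show how the levels of 8 hours and 1 day sit in the whole time course. For 51 of the 53 genes that fell (96.2%), the highest dorsal sample at 2 to 14 days was below the lowest at 8 hours, against 19.1% of the 2611 genes lower at 1 day without overlap and 4.2% of all genes. The 53 genes were chosen for being higher at 8 hours than at 1 day, so these shares are a description. Retnlg averaged 6.34 (2 days), 6.41 (4 days), 6.40 (7 days) and 7.03 (14 days), all near its 1 day values. Sbno2 was different, with 11.83 (2 days), 10.91 (4 days), 10.73 (7 days) and 8.10 (14 days), above each 1 day sample. Olfr154 was back below its 1 day values, at 8.00 (2 days), 7.56 (4 days), 7.12 (7 days) and 7.64 (14 days).

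**Figure D4:**
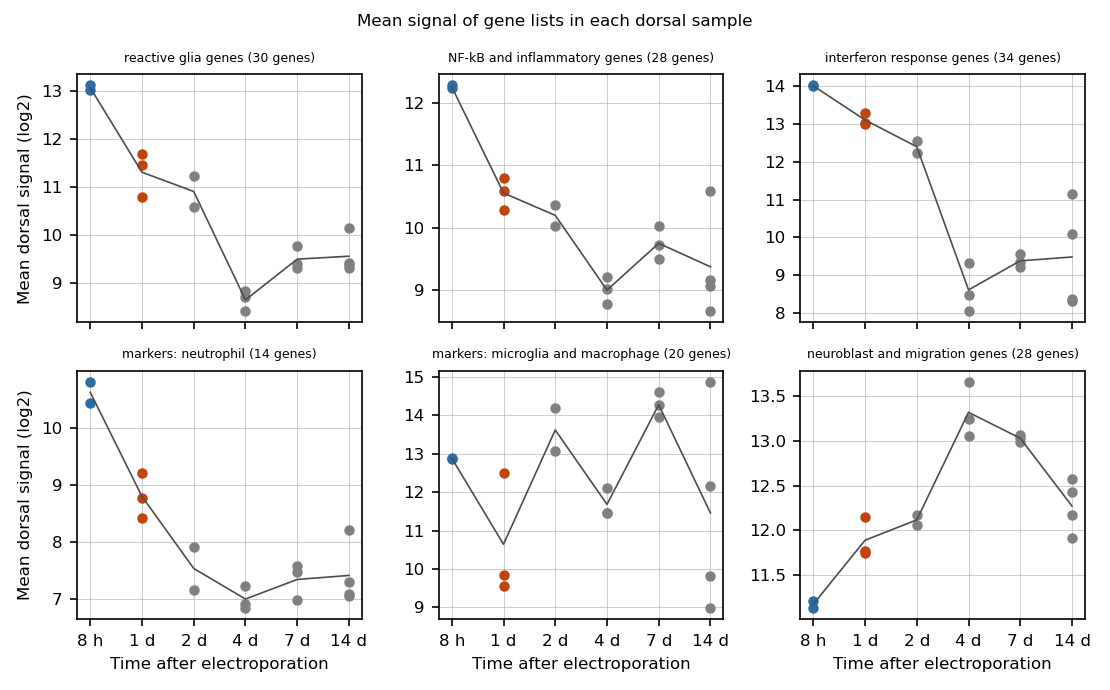
Mean dorsal signal (log2) of 6 gene lists in every dorsal sample over time after electroporation, with 8 hours in blue, 1 day in red, later samples in grey and a line through the group means. The reactive glia list stands at 13.02 and 13.12 at 8 hours and at 10.78 to 11.68 at 1 day, and microglia markers are low in 2 of the 3 samples of 1 day.

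The lateral lineage on the same arrays allowed each dorsal difference to be set beside a lateral one, since both come from the same hybridizations. Over all genes, 9.98% were lower and 15.0% higher without overlap in the lateral samples, with a median difference of 0.27 log2 units. Of the 53 genes that fell in the dorsal samples, 37 were lower without overlap in the lateral samples too, against 9.98% of all genes. A lateral difference below 0 was seen for 48 of the 53, against a median over all genes of 0.27. Both lineages share the slides, the software versions and the scaling between arrays, so the lateral values are not an independent check. Cxcl11 differed by -7.74 in the lateral samples, against -7.10 in the dorsal ones, and Retnlg by -6.84, against -6.40. The lateral median was lower than the dorsal one for the chemokines (-4.66 lateral, -1.88 dorsal), the interferon response genes (-2.17 lateral, -0.48 dorsal) and the microglia markers (-3.66 lateral, -2.42 dorsal). The list-level differences between the lineages were not tested.

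Whether the dorsal and lateral differences were unequal was tested gene by gene on the within-array log2 ratio. This test called 6 genes with a more negative dorsal than lateral difference (0.0258% of 23244) and 3 with a more positive one (0.0129%), in limma with Benjamini-Hochberg adjustment, while 1430 had an unadjusted p under 0.05. Cyp4b1, a cytochrome P450 enzyme, read 6.70, 6.29 and 6.61 log2 units at 1 day, against 10.87 and 9.87 at 8 hours in the dorsal samples, and its lateral difference was 0.40. The dorsal minus the lateral difference was -4.24 ± 0.43 (SE) log2 units (limma adjusted p = 0.00511). Cpn1, the catalytic chain of carboxypeptidase N, read 6.38, 6.33 and 6.34 at 1 day, against 9.04 and 8.43 at 8 hours in the dorsal samples, with a lateral difference of 0.38. Arsj fell in the dorsal samples by 3.87 and had a lateral difference of -1.78. Fosl1 differed by -6.31 in the dorsal and by -3.21 in the lateral samples, and these differences were not called unequal (limma adjusted p = 0.113).

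Without replicate 3 of 1 day this test called 23 genes with a more negative and 29 with a more positive dorsal difference, and without replicate 2 of 8 hours 17 and 18. Without replicate 1 of 1 day the counts were 3 and 0, without replicate 2 of 1 day 2 and 0, and without replicate 1 of 8 hours 3 and 6. With the replicate number as a block, 0 genes were called in either direction in limma (1579 at an unadjusted p under 0.05), and with the 5 arrays alone also 0 (1077).

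**Figure D5:**
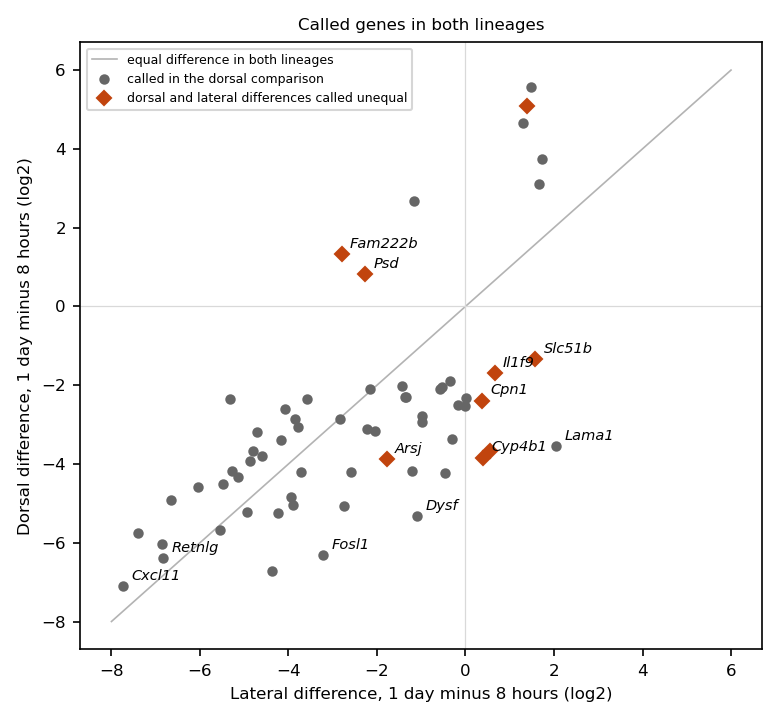
Difference between 1 day and 8 hours (log2) in the dorsal samples (vertical axis) and in the lateral samples (horizontal axis) for genes called in either test and shown here; the grey line marks equal differences and red diamonds mark the 9 genes whose differences were called unequal. Most genes lie at lower left, lower at 1 day in both lineages, while Cyp4b1, Cpn1 and Lama1 lie at a lateral difference above 0. The differences of Lama1 were not called unequal.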

How the data were processed

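The authors deposited Agilent Feature Extraction scanner files of two-colour arrays, with spot intensity and background intensity per dye and a log10 ratio of Cy5 over Cy3, per the file headers (Feature Extraction 10.5.1.1 and 10.7.3.1, per the submitters' processing notes and the headers). They also deposited a table of log2 ratios, which correlated with the scanner's Cy5 over Cy3 at -0.972 to -0.903 over 41174 probes, so its direction is dorsal over lateral. How its columns were centred stays unknown. It served as an alternative. The depth of an array is its signal over background, and the number of arrays limits the precision.

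Intensity of the deposited files was background-corrected (normexp, offset 50), loess-normalized within each array (control spots had weight 0), and quantile-normalized on mean signal between arrays (limma 3.58.1, R 4.3.3). Spots with outlier flags were left out, and spots of a probe were averaged. A gene is its brightest passing probe, and 23244 genes were kept whose probe was well above background on at least 2 of the 5 arrays. Names came from the file or from RefSeq (GRCm38.p6): 26876 probes were matched by accession, 2894 by symbol and 347 by synonym, and 11057 kept the file's name. One mean per time point was fitted to the dorsal channel of 17 arrays with eBayes, the contrast was 1 day minus 8 hours, and p-values were adjusted over all genes at a threshold of 0.05. They rest on the spread within time points pooled over the 17 arrays, not on that of the 5 arrays alone. The same model on the within-array ratio tested dorsal against lateral differences. For genes that no array of the dimmer group measured well above background, the fold is given as at least the value shown, against the higher of the dim signal and the lowest signal well above background.

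The named genes were up to 20 per direction that passed the test without overlap, up to 4 per list that passed or otherwise the 2 of largest difference, and up to 5 per direction in the dorsal against lateral test. Further list members were named after their values were seen. The 41 gene lists, the markers, the rules and the comparison were chosen with earlier results of these data known. The scripts were tested on simulated data. Alternatives covered filters, probe summaries, scalings, slide, replicate number, array weights and each sample left out. Figures used Python 3.11.15 and matplotlib 3.10.9. The result of 1 gene that passed the test is not reported here.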

Additional observations from a re-analysis of the deposited data

Results flagged for a closer look

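A test of the difference itself, on the within-array ratio in limma, called 9 probes whose difference between 1 day and 8 hours was unequal in the dorsal and the lateral samples. The dorsal minus the lateral difference was -4.24 log2 units for Cyp4b1, -4.23 for the unnamed probe A_52_P346901, -2.92 for Slc51b, a subunit of a bile acid transporter, -2.77 for Cpn1, -2.37 for Il1f9, a cytokine of the interleukin 1 family, and -2.09 for Arsj. It was 3.08 for Psd, an exchange factor for small GTPases, 3.70 for the unnamed probe A_52_P827836 and 4.14 for Fam222b. Psd and Fam222b differed mainly in the lateral samples, by -2.27 and -2.80, against 0.82 and 1.33 in the dorsal ones. None of the 9 was called with the replicate number as a block, with the 5 arrays alone, with the slide of the 8 hour arrays as a term or in the deposited ratio table. Groups of 2 and 3 samples are too small for the test of single samples that stand apart.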

How the results depend on the processing

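The number of genes past the threshold depended strongly on the fit. In the dorsal comparison 53 genes were lower and 6 higher. Array weights were 0.141, 3.75 and 0.337 for replicates 1, 2 and 3 of 1 day, against 4.26 for each 8 hour sample. The weighted fit therefore leaned on replicate 2 of 1 day. With slide as a random block, in both tests, a negative correlation within slides lowers the standard error of a contrast between slides. Calls rose to 90 lower and 23 higher with no filter and to 83 and 12 with the mean over probes. They rose to 104 and 14 with a trended robust prior and to 3699 and 5788 with array weights. They were 1486 and 2720 with slide as a random block (consensus correlation -0.23). They dropped to 35 lower and 2 higher with quantile scaling of the dorsal channel alone, 2 and 0 with the scanner's processed signal, 0 and 0 with 75th percentile scaling, 0 and 0 with the 5 arrays only, and 6 and 0 with the slide of the 8 hour arrays as a term, an alternative chosen after seeing the data. Leaving out 1 sample gave 8 to 549 lower and 0 to 1112 higher genes. The stricter filter kept 43 and 6. With the mean over probes, 51 of the 53 lower and 4 of the 6 higher genes kept their call.

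In the test of dorsal against lateral differences, 6 genes were more negative and 3 more positive. The counts were 30 and 15 with no filter, 1 and 0 with the stricter filter, 8 and 5 with the mean over probes, 11 and 5 with array weights, 84 and 105 with slide as a random block (consensus correlation -0.19), 1 and 0 with a trended robust prior, and 1 and 0 with median centring. They were 0 and 0 with the 5 arrays only, the slide of the 8 hour arrays as a term or the deposited ratio table. Leaving out 1 sample gave 2 to 23 and 0 to 29.

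Replicate numbers are shared between the groups, and the deviations of same-numbered samples correlated at -0.04 and -0.03. With 2 samples at 8 hours, these values cannot tell whether such samples share more than a number. With the replicate number as a block, 131 genes were lower and 165 higher in the dorsal comparison, and 0 and 0 in the dorsal against lateral test. Of the named genes, 2 that had not passed the test changed sign: Cryab to 0.38 with the slide of the 8 hour arrays as a term (main value -1.91), and Egln3 to 0.23 without replicate 1 of 1 day (main value -2.30, and -3.65 without replicate 3). The cause was not tested. Genes below background at 1 day have understated differences.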
